A study of Rattus norvegicus with 22 samples.

Results

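Complement components and regulators were followed in the ventral cervical spinal cord of adult rats as 9 genes, C1qa, C1qb, C1qc, C1r, C1s, C4b, C3, Serping1 and C3ar1. They were taken by their symbols, and 9 of 9 were found among the 32883 genes of the count table. Of those genes 15562 passed a filter on low counts over all rats, among them all 9 members. Complement is a cascade of proteins in which recognition molecules and proteases lead to the cleavage of the central component C3, which tags surfaces and releases a small peptide that cells sense through a receptor. In the nervous system C1q is made mainly by microglia, and C1q and C3 are known for marking synapses for removal during development. Soluble and membrane-bound regulators hold the cascade in check.

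RNA was sequenced from spinal cord at cervical levels C3 to C6 with the dorsal part removed, with 1 library per rat. The rats were Sprague-Dawley, 3 to 4 months old and perfused with saline, and the study asked how removal of the gonads alters this tissue in each sex. The 4 groups were 5 males with testes in place (intact males), 5 castrated males (GDX males), 6 females with ovaries in place (intact females) and 6 ovariectomized females (OVX females). Tissue of GDX and OVX rats was taken 2 weeks after surgery. Intact rats were matched for age, and a sham operation is not described in the sources used here, so surgery and loss of the gonads cannot be told apart. Rats carry the numbers of their labels, 1, 2, 3, 5 and 6 for intact males and 1, 2, 4, 5 and 6 for GDX males.

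The total counted per library lay between 12371756 and 17571887 reads, with medians of 14196615 and 15645521 (males, intact and GDX) and of 14640726 and 14766802.5 (females, intact and OVX). Levels are given as CPM, the count of a gene over the library total after scaling by edgeR's TMM factors. C3 had between 1765 and 3566 counts per library, for which counting error alone is 2.03% of the median count. C4b had 4 to 29 counts and C3ar1 16 to 47, with counting errors of 25.0% and 19.8%, so that small differences of these genes were not detectable at this depth. The other members lay between 67 counts (lowest library of Serping1) and 525 counts (highest library of C1qa). Reads of C4b and its near-identical neighbour C4a can be shared, and the strand setting of the counting is not given in the sources used here, so both C4 genes are uncertain. The libraries fall into a class with shorter and a class with longer input fragments in the study's mapping data. All 5 GDX and 6 OVX libraries are of the shorter class, as are those of males 2 and 5 and females 1 and 4 of the intact groups, and the other 7 libraries are longer.

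Levels of 7 genes listed for motor neurons were looked at beside the tissue label. No dorsal tissue was sequenced, so these levels cannot show that the dorsal part was removed. All 7 passed the filter and none was at 0 in every library, and the most abundant, the heavy neurofilament gene Nefh, had 4906 ± 923 and 4000 ± 308 CPM in intact and GDX males and 4985 ± 582 and 4078 ± 442 CPM in intact and OVX females (mean ± SD). Tests are edgeR's quasi-likelihood tests with Benjamini-Hochberg adjustment over all genes tested, and a gene with an adjusted p below 0.1 is termed called. Of the 7, 2 were called lower in GDX than in intact males, as 983 of 14931 genes were. In OVX against intact females 0 of the 7 were called by edgeR. There 6 of the 7 reached an unadjusted p under 0.05 in edgeR, as 1516 of 14910 genes did. Their sum was 4458 and 4618 CPM in shorter intact male libraries, 5065, 5580 and 7043 CPM in longer ones and 3945 to 4741 CPM in GDX males. In females it was 4333 and 5492 CPM in shorter intact, 5300 to 6057 CPM in longer intact and 3957 to 5270 CPM in OVX libraries. The part of library class in these sums was not tested. In bulk tissue, fewer cells of a type and less RNA per cell cannot be told apart.

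The members can be set in the order in which they act. C1qa (ENSRNOG00000012807), C1qb (ENSRNOG00000012749) and C1qc (ENSRNOG00000012804) encode the chains of the recognition molecule C1q. C1r (ENSRNOG00000011796) and C1s (ENSRNOG00000011971) encode the proteases that bind it. C4b (ENSRNOG00000030729) and C3 (ENSRNOG00000046834) encode components cleaved further down. Serping1 (ENSRNOG00000007457) encodes C1 inhibitor, which blocks both proteases, and C3ar1 (ENSRNOG00000009211) the receptor for the C3a peptide.

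Promoters of the members were searched for short motifs as a description of the genes. The reference table of RefSeq promoters (build GRCr8, 250 bases before to 50 bases after the start of a gene) held 6 of 9 members, C1qa, C1qb, C1r, C4b, C3 and C3ar1. C1qc, C1s and Serping1 were without an entry. The 4 shown are those of both C1q chains with an entry, of a protease and of the central component, each written 5′ to 3′ on the strand of its gene: C1qa at chr5:154419884-154420183 (minus strand), C1qb at chr5:154407778-154408077 (minus strand), C1r at chr4:159098763-159099062 (plus strand) and C3 at chr9:2201290-2201589 (minus strand). Capitals mark GGAAGT, a form of the ETS core that PU.1 also binds, in C1qa and on the opposite strand in C1qb, GAGGAA on the opposite strand in C1r, and TTGCGNAA, a C/EBP-type motif, in C3.
C1qa: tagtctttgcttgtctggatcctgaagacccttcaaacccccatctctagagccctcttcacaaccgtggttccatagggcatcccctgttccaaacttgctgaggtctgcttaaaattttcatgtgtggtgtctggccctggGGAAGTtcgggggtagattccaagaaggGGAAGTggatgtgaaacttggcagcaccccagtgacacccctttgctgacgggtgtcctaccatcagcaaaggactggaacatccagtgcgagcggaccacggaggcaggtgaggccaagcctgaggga
C1qb: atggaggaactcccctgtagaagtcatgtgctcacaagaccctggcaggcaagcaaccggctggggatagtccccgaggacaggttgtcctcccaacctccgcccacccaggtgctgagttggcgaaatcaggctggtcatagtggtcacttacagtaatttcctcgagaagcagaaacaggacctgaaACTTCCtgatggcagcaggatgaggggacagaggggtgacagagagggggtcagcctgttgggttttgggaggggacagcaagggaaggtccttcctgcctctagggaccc
C1r: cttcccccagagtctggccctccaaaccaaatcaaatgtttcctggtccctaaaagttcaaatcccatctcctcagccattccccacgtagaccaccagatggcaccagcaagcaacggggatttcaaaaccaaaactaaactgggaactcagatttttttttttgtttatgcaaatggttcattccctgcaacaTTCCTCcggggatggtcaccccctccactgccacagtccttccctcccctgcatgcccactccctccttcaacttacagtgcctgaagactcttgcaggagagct
C3: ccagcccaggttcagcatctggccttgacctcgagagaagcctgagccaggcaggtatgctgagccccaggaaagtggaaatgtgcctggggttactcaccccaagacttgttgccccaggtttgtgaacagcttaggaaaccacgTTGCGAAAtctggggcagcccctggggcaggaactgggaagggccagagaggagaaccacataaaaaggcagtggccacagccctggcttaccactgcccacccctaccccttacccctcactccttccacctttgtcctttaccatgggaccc

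The letters searched on both strands were GGAAGT (ETS core), GAGGAA (a purine-rich form bound by PU.1), TTCNNNGAA (STAT), TTGCGNAA (C/EBP-type), TTNNGNAAN (a looser form that overlaps the C/EBP-type letters), TGACGTCA (CRE), TGTTCT (a core of sites for the androgen and glucocorticoid receptors) and the estrogen response element, whose arms GGTCA and, after 3 bases of any kind, TGACC mirror each other. GGAAGT was in 22.6% of 33469 promoters of this length, and had 2 matches in C1qa and 1 in C1qb. GAGGAA was in 27.6% of promoters, with 2 matches in C1qb and 1 each in C1r and C4b. TTCNNNGAA was in 8.87% and had 1 match in C1qa, and TTGCGNAA was in 0.846% and had 1 match in C3. TTNNGNAAN, in 41.2% of promoters, had 3 matches in C3 and 2 in C1r. The letters TGACGTCA (1.83% of promoters), TGTTCT (20.7%) and the estrogen response element (0.0269%) were in none of the 6 member promoters, and C3ar1 held none of the 8 motifs. These matches describe letters in a window and no site of binding.

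In males, 4 of 9 members were higher after removal of the testes: the C1q chain C1qc, both proteases C1r and C1s, and the inhibitor Serping1. Over all genes, 13.4% of 14931 were called in this comparison and 6.78% were called higher. The log2 fold changes of all 9 members were above 0, with a median of 0.32, where the median of all genes tested was 0.0021 and 7546 were above 0. Serping1 differed most, with 1.96 times the level of intact males (95% interval 1.36 to 2.82). No member separated the groups completely, against 7.47% of all genes that did so in either direction.

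C1qc, the C chain of C1q, stood at 8.65, 8.96, 10.51, 12.6 and 8.99 CPM in intact males 1, 2, 3, 5 and 6, and at 11.8, 13.9, 12.7, 17.9 and 12.1 CPM in GDX males 1, 2, 4, 5 and 6. The groups overlapped only through intact male 5, and 3 of 5 GDX males lay above every intact male. C1qc rose by a log2 fold change of 0.46 ± 0.13 (SE), and 5 of 5 GDX males were above the intact mean (edgeR adjusted p = 0.0445). C1qa, the A chain, stood at 21.1, 21.0, 25.5, 22.5 and 19.4 CPM in intact males and at 22.05, 25.3, 24.0, 30.5 and 23.4 CPM in GDX males. A single GDX male, number 5, lay above all intact males for C1qa, and the log2 fold change of 0.20 ± 0.09 was not called, with 5 of 5 GDX males above the intact mean (edgeR adjusted p = 0.211). C1qb, the B chain, stood at 15.1, 13.9, 16.6, 15.8 and 12.5 CPM in intact males and at 15.4, 16.2, 17.2, 22.004 and 14.3 CPM in GDX males. These values overlapped widely, with 4 of 5 GDX males above the intact mean and a log2 fold change of 0.20 ± 0.11 (edgeR adjusted p = 0.296).

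C1r, the protease that activates C1s, stood at 15.5, 18.6, 16.6, 20.9 and 16.4 CPM in intact males and at 18.3, 22.1, 19.8, 24.3 and 21.5 CPM in GDX males. Intact males 2 and 5 reached into the range of the GDX males, and 3 of 5 GDX males lay above all intact males. C1r rose by a log2 fold change of 0.27 ± 0.09, with 5 of 5 GDX males above the intact mean, close to the level of the call (edgeR adjusted p = 0.0950). C1s, the protease that cleaves C4 and C2, stood at 11.5, 14.1, 13.001, 13.9 and 11.6 CPM in intact males and at 12.2, 15.9, 17.7, 17.7 and 18.5 CPM in GDX males. GDX male 1 lay among the intact males and the other 4 above all of them. C1s rose by a log2 fold change of 0.36 ± 0.11, with 4 of 5 GDX males above the intact mean (edgeR adjusted p = 0.0575).

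Serping1, the inhibitor of both proteases, stood at 7.16, 5.85, 6.80, 6.00 and 4.40 CPM in intact males and at 6.31, 9.01, 12.02, 20.7 and 11.2 CPM in GDX males. GDX male 1 lay within the range of intact males and GDX male 5 far above the other GDX males. Serping1 rose by a log2 fold change of 0.97 ± 0.25, with 5 of 5 GDX males above the intact mean and 4 of 5 above every intact male (edgeR adjusted p = 0.0268). Without GDX male 5 its log2 fold change was 0.68, and it stayed called in each of the 10 fits that left out 1 male, with an adjusted p in edgeR of at most 0.0636.

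C3, the central component, stood at 149, 136, 153, 163 and 171 CPM in intact males and at 184, 189.9, 164, 206 and 138 CPM in GDX males. GDX male 6 was near the lowest intact male and 3 of 5 GDX males were above all intact males. Its log2 fold change was 0.19 ± 0.09, with 4 of 5 GDX males above the intact mean (edgeR adjusted p = 0.210), and C3 was called without GDX male 6, at 0.27 (edgeR adjusted p = 0.0473). C4b, whose product is cleaved by C1s, lay between 0.394 and 1.56 CPM in intact males and between 0.848 and 1.62 CPM in GDX males, with a log2 fold change of 0.44 ± 0.35 (edgeR adjusted p = 0.494) and 5 of 5 GDX males above the intact mean. C3ar1, the C3a receptor, lay between 1.36 and 2.00 CPM in intact males and between 1.44 and 2.90 CPM in GDX males. Its log2 fold change was 0.32 ± 0.24, with 3 of 5 GDX males above the intact mean (edgeR adjusted p = 0.458).

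**Figure D1:**
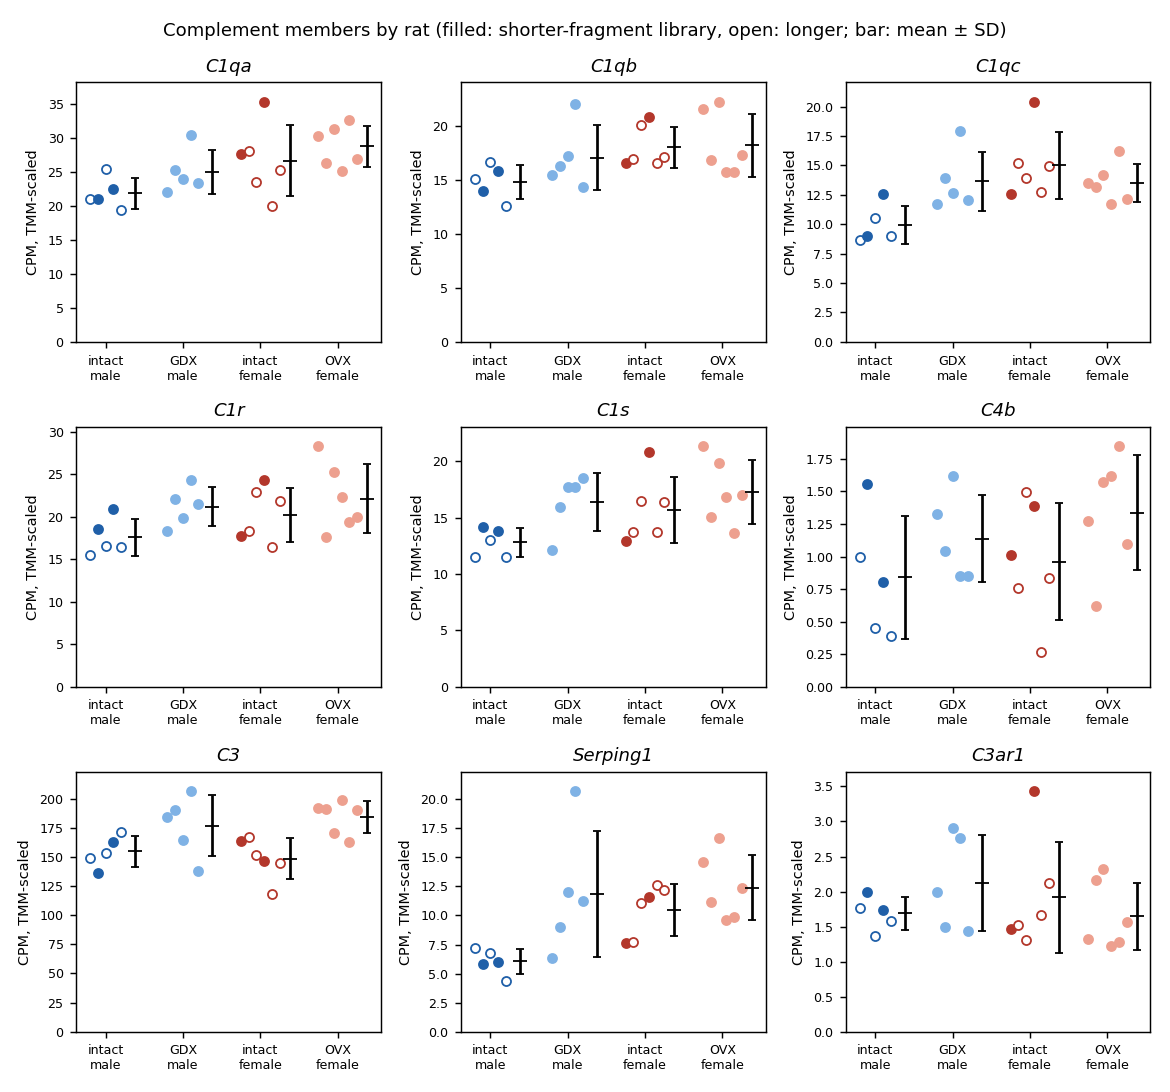
Level of each member in each of 22 rats, in CPM on the vertical axis, by group on the horizontal axis. Filled points are libraries with shorter and open points with longer input fragments, and bars give the mean ± SD of a group. Serping1 ranges from 4.40 to 7.16 CPM in intact males and from 6.31 to 20.7 CPM in GDX males.

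The plot of levels by rat shows each library behind these fold changes and its fragment class. GDX male 5 had the highest GDX value of C1qa, C1qb, C1qc, C1r, C3 and Serping1. Without it C1qc was at a log2 fold change of 0.34 (edgeR adjusted p = 0.112), C1r at 0.21 (0.230) and C1s at 0.33 (0.135), which left Serping1 as the 1 member called, among 1202 genes called. Serping1 was also the 1 member called without intact male 1, where C1qc was at 0.41 (0.108), C1r at 0.22 (0.210) and C1s at 0.32 (0.135). Without intact male 2 or 6 or GDX male 4, 2 members were called. C1qc lost its call without intact male 2 (edgeR adjusted p = 0.102), C1s without intact male 6 (0.121), GDX male 4 (0.123) and GDX male 6 (0.134), and C1r was called in 2 of the 10 fits, without intact male 5 (0.0427) or GDX male 1 (0.0450). The whole range of C1r was from 0.0427 to 0.230.

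Library class moved with the proteases within the intact males. C1r had a mean of 19.8 CPM in the 2 shorter and 16.1 CPM in the 3 longer intact libraries, C1s 14.0 and 12.01 CPM, and C1qc 10.8 and 9.38 CPM, whereas Serping1 had 5.93 and 6.12 CPM. The 5 GDX males were also set against only intact males 2 and 5, all of the shorter class. There 0 of 9 members were called by edgeR, beside 440 of 15553 genes tested. Without a call, Serping1 was at a log2 fold change of 0.99 (edgeR adjusted p = 0.185) beside 0.97 over all males. C1qc was at 0.34 (0.356) beside 0.46, C1s at 0.23 (0.449), C1r at 0.10 (0.688) and C4b at -0.03 (0.977). With the class as a term for all 10 males, 0 of 9 members and 796 of 14931 genes were called by edgeR. No longer library exists among GDX males, so the class could not be compared within that group.

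Markers of the coverings of the cord also differed between GDX and intact males. Of 11 tested genes of meninges and fibroblasts, 11 were higher in GDX males, with a median log2 fold change of 1.70. Their summed level was 200.2, 134, 140.3, 91.2 and 70.8 CPM in intact males 1, 2, 3, 5 and 6, and 186, 298, 437, 595 and 473 CPM in GDX males 1, 2, 4, 5 and 6. The most abundant gene of this list was Col1a1, with 33.4 ± 18.0 CPM in intact and 117 ± 51.8 CPM in GDX males, no gene was at 0 in every library, and Col1a2 had no entry in the table. GDX male 1, the GDX rat with the lowest Serping1, had the lowest GDX sum, and GDX male 5, with the highest Serping1, the highest. With the mean level of this list as a term, 0 of 9 members and 5 of 14931 genes were called by edgeR. In that fit Serping1 turned to a log2 fold change of -0.44 (edgeR adjusted p = 0.918), C1qa to -0.11, C1qb to -0.17 and C3ar1 to -0.13. C1qc was at 0.24, C1r at 0.16 and C1s at 0.03. The list mean (log2 CPM) was 2.00 to 3.00 in intact and 3.28 to 4.86 in GDX males, so that it separates the groups completely, and its part and that of the surgery cannot be told apart in that fit.

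Of 13 microglia genes, 0 were called by edgeR between GDX and intact males and 1 reached an unadjusted p under 0.05. Their summed level was 418, 417, 440.4, 450.04 and 415 CPM in intact males and 444, 456, 430.3, 522 and 428 CPM in GDX males, with Ctss as the most abundant gene and none at 0. With the mean of this list as a term, C1qc (log2 fold change 0.30, edgeR adjusted p = 0.0966) and Serping1 (0.71, 0.0913) were called among 1072 genes, and C1r (0.21, 0.254) and C1s (0.35, 0.133) were not. Of 7 tested genes of macrophages at the borders of the nervous system 4 were higher in GDX males, with summed levels of 27.4, 28.1, 23.6, 21.2 and 16.9 CPM in intact males and 33.9, 36.7, 41.0, 48.0 and 41.2 CPM in GDX males, the most abundant being Mrc1. Of 10 endothelial genes 9 were higher, from a summed 274 ± 19.6 to 367 ± 25.0 CPM, the most abundant being Slc2a1, and Pecam1 had no entry. Of 9 astrocyte genes 3 were higher and 1 lower, from a summed 7379 ± 328 to 8833 ± 509.9 CPM (mean ± SD, n = 5), the most abundant being Gfap. Granulocyte genes were too low for a test in males, with sums of 0.756 to 2.41 CPM in intact and 1.46 to 14.6 CPM in GDX males, S100a9 the most abundant and Ltf at 0 in every library. Beyond the fits with a list as a term, the part of these markers in the members' levels was not tested.

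**Figure D2:**
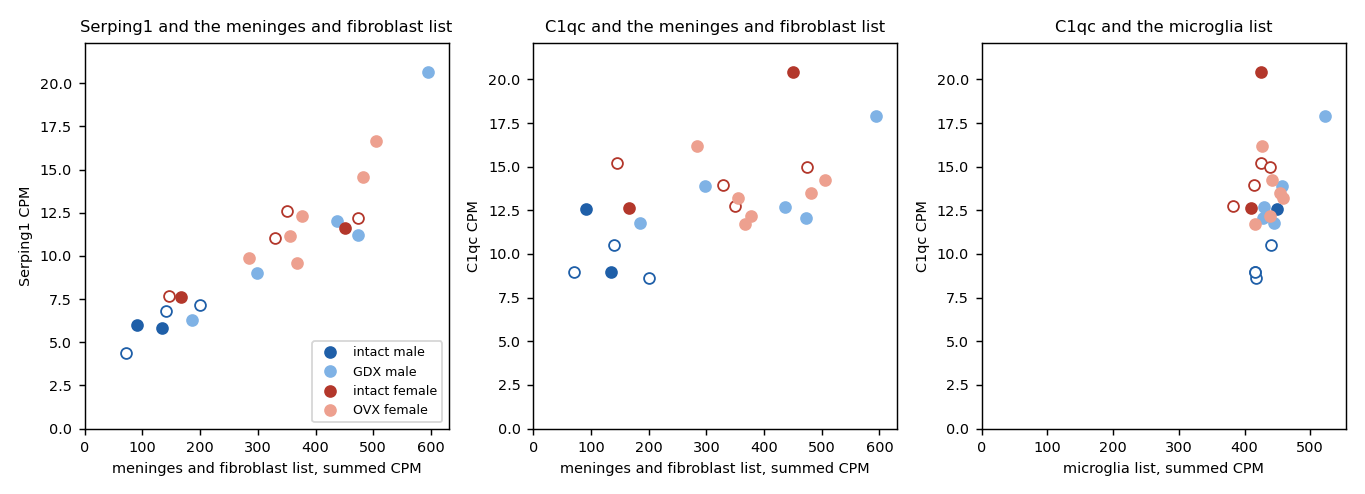
Serping1 and C1qc in CPM on the vertical axes against the summed CPM of the meninges and fibroblast list or the microglia list on the horizontal axes, with 1 point per rat, coloured by group and filled for shorter-fragment libraries. Serping1 reaches 20.7 CPM in the rat with 595 CPM of meninges and fibroblast genes.

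The plot of members against marker lists shows Serping1 climbing with the meninges and fibroblast sum in every group, while C1qc spreads widely at a given sum. Serping1 and the mean of that list correlated at Pearson's r = 0.919 and Spearman's rho = 0.918 over 22 rats after centring within groups. Over the 15 shorter libraries r was 0.928, and without the 2 rats farthest from the median list value, intact female 2 and GDX male 1, it was 0.906. C1s followed this list with r = 0.679 and rho = 0.665 (r = 0.850 in shorter libraries, 0.594 without the same 2 rats), C1qb with 0.631 and 0.632 (0.713 and 0.643) and C1r with 0.457 and 0.464 (0.668 and 0.378). C1qc had r = 0.274 and rho = 0.302 (0.460 and 0.258), and C3 -0.309 and -0.433 (-0.151 and -0.201). Over 22 rats alone, C3ar1 had r = 0.483 and rho = 0.430 with this list, C1qa 0.258 and 0.340, and C4b 0.0241 and 0.0717. With the mean of the microglia list the C chain had r = 0.734 and rho = 0.695, C1qa 0.712 and 0.626, and C1qb 0.701 and 0.627, so that C1qb followed both lists. Without GDX male 5 and intact female 5, the rats farthest from the median, these r values were 0.635, 0.571 and 0.604. In the shorter libraries alone they were 0.740, 0.662 and 0.727. C3 had r = 0.557 and rho = 0.403 with the microglia list (0.498 in shorter libraries, 0.321 without these 2 rats).

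The lists of endothelium and border macrophages, also higher in GDX males, were set against members too, the endothelium list running opposite to C1qa and C1qc, in pairs chosen after the values were seen. With the endothelium mean C1qa had r = -0.667 and rho = -0.528 (r = -0.562 in shorter libraries, -0.363 without intact females 4 and 5), and C1qc -0.506 and -0.474 (-0.564 and -0.232). With the border macrophage mean Serping1 had r = 0.639 and rho = 0.684 (r = 0.589 in shorter libraries, 0.686 without intact males 2 and 6), C1qb 0.568 and 0.564 (0.526 and 0.628) and C1s 0.553 and 0.586 (0.618 and 0.548). Each r describes libraries that share their preparation and was given no p.

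**Figure D3:**
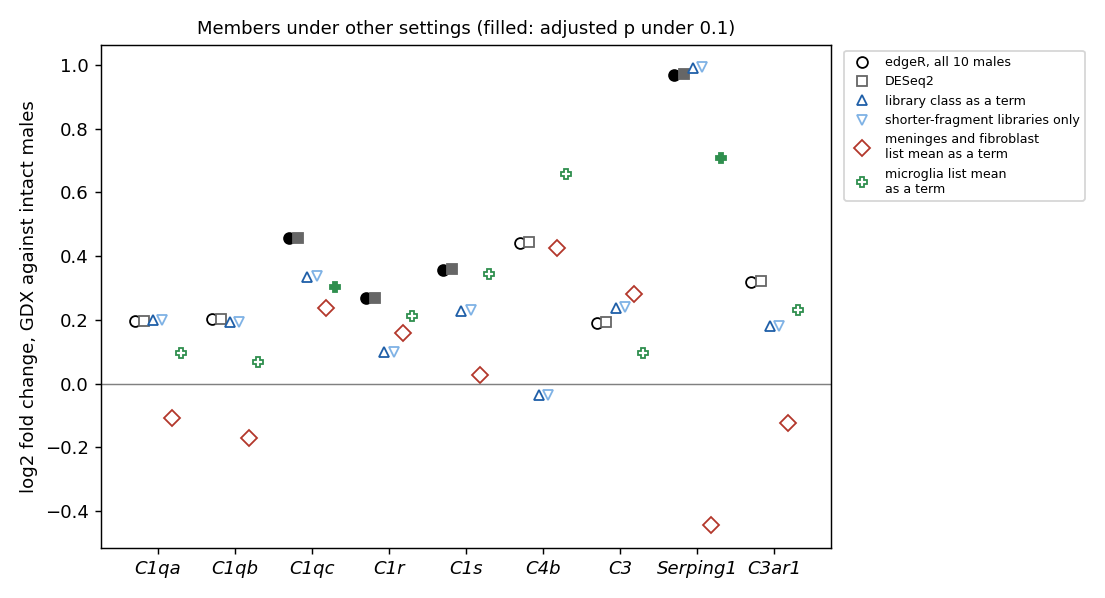
Log2 fold change of each member between GDX and intact males on the vertical axis under 6 settings, filled where the adjusted p was under 0.1. Serping1 is at 0.97 in the edgeR fit of 10 males, at 0.99 in the shorter libraries and at -0.44 with the meninges and fibroblast mean as a term.

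The plot of settings sets these male values side by side. C1qa, C1qb, C1qc, C1r, C1s, Serping1 and C3ar1 were lower with either marker list as a term than without it, whereas C3 was at 0.28 with the meninges and fibroblast mean (edgeR adjusted p = 0.919) and at 0.09 with the microglia mean (0.555), beside 0.19 without a term.

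In females, removal of the ovaries left 0 of 9 members called by edgeR, where 0.0335% of 14910 genes (5 genes) were called. Of the members 1, C3, reached an unadjusted p under 0.05, as 1516 of all genes did, and DESeq2 called 1 member, again C3, among 174 genes. The median log2 fold change of the members was 0.14, against 0.00255 over all genes tested, and 7 of 9 were above 0. No member separated the groups, as 0.543% of all genes did.

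C3 lay between 118 and 167 CPM in intact females (median 149) and between 163 and 199 CPM in OVX females (median 191). OVX female 5 alone fell within the range of intact females, and the other 5 were above all of them. The log2 fold change of C3 was 0.32 ± 0.07, with 6 of 6 OVX females above the intact mean, and it ranked 36 by p among all genes (edgeR adjusted p = 0.150). DESeq2 gave it an adjusted p of 0.00738, and edgeR called it without intact female 1, at 0.35 (adjusted p = 0.0586), where 113 genes were called. In the shorter libraries alone, with 2 intact females, the log2 fold change of C3 was 0.25 (edgeR adjusted p = 0.619).

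C1qa lay between 20.04 and 35.4 CPM in intact females (median 26.5) and between 25.2 and 32.6 CPM in OVX females (median 28.6). The intact values enclosed those of OVX females, and the log2 fold change was 0.11 ± 0.11 (edgeR adjusted p = 0.783, 4 of 6 OVX females above the intact mean). It was -0.13 within the shorter libraries. C1qb, with medians of 17.0 CPM in both groups, differed by 0.02 ± 0.10 (0.969, 2 of 6 above) and C1qc, with medians of 14.5 and 13.4 CPM, by -0.15 ± 0.11 (0.721, 1 of 6 OVX females above the intact mean).

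C1r had medians of 20.04 CPM in intact and 21.2 CPM in OVX females and a log2 fold change of 0.14 ± 0.12 (edgeR adjusted p = 0.749, 3 of 6 above the intact mean). C1s had medians of 15.1 and 16.9 CPM and 0.15 ± 0.12 (edgeR 0.732, 4 of 6). Serping1 lay between 7.60 and 12.6 CPM in intact females (median 11.3) and between 9.59 and 16.7 CPM in OVX females (median 11.7). Intact females 1 and 2, at 7.60 and 7.68 CPM, were below all OVX females, and the other 4 intact females lay among them. The log2 fold change of Serping1 was 0.25 ± 0.15 (edgeR adjusted p = 0.621, 4 of 6 above the intact mean). C4b had medians of 0.923 and 1.42 CPM and 0.47 ± 0.33 (edgeR 0.681, 5 of 6), and C3ar1 1.60 and 1.45 CPM and -0.21 ± 0.26 (edgeR 0.859, 2 of 6). Without intact female 4, whose C3ar1 level of 3.43 CPM was the highest of all rats, that log2 fold change was 0.03.

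Meninges and fibroblast genes summed to 166, 146, 329, 451, 350.3 and 474 CPM in intact females 1 to 6 and to 482, 356, 505, 367, 284 and 377 CPM in OVX females 1 to 6. Intact females 1 and 2 were low both here and in Serping1. Of the 11 genes 0 were called by edgeR, and 0 reached an unadjusted p under 0.05. Microglia genes summed to 416 ± 19.1 CPM in intact and 439 ± 16.1 CPM in OVX females (mean ± SD, n = 6), with 0 of 13 called and 5 at an unadjusted p under 0.05. For border macrophages and endothelium edgeR also called 0 genes, with 0 of 7 and 8 of 10 at an unadjusted p under 0.05. Astrocytes had 0 of 9 called (3 at an unadjusted p under 0.05), and the 1 granulocyte gene tested, S100a9, was not called by edgeR, with an unadjusted p under 0.05, a log2 fold change of 1.67 and groups that did not overlap. The part of these markers in the level of C3 was not tested beyond the fits with a list mean, which gave C3 0.36 (meninges and fibroblasts, edgeR adjusted p = 0.127) and 0.26 (microglia, 0.474).

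Between the intact sexes, 2 of 9 members were lower in males, C1qc and Serping1, and both separated males from females completely in CPM scaled by TMM factors. Of 14937 genes 4.01% were called and 2.56% were called lower in males, while 2.67% had groups that did not overlap and 1.48% did so with males lower. Of the members 1, C3, had a log2 fold change above 0 and the others below, with a median of -0.28 beside 0.00285 over all genes. Intact males are the reference group of the castration comparison and intact females that of the ovariectomy comparison, so these results share samples.

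Serping1 lay between 4.40 and 7.16 CPM in intact males (mean 6.04 ± 1.07, SD, n = 5) and between 7.60 and 12.6 CPM in intact females (mean 10.45 ± 2.24, n = 6). Every male was below every female. Its log2 fold change was -0.79 ± 0.16, with 5 of 5 males lower (edgeR adjusted p = 0.0189). C1qc lay between 8.65 and 12.6 CPM in males (mean 9.93 ± 1.64) and between 12.6 and 20.4 CPM in females (mean 15.0 ± 2.88). The highest male, number 5, and the lowest female, number 1, nearly touched, both at 12.6 CPM. Without the TMM factors the groups overlapped, with intact male 5 at 13.05 CPM and intact females 1 and 5 at 12.78 and 12.89 CPM. C1qc had a log2 fold change of -0.58 ± 0.13, with 5 of 5 males lower (edgeR adjusted p = 0.0277), and -0.48 without intact female 4, whose C1qc was the highest of all rats (edgeR adjusted p = 0.0404).

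C1qb, at a mean of 14.8 ± 1.60 CPM in males and 18.0 ± 1.91 CPM in females, had a log2 fold change of -0.28 ± 0.09 (edgeR adjusted p = 0.123), with 4 of 5 males below all females. It was called without intact male 3 (edgeR adjusted p = 0.0863) or intact female 1 (0.0951), and also by DESeq2, which called 3 members and 820 genes. C1qa differed by -0.28 ± 0.12 (edgeR 0.246), C1s by -0.28 ± 0.11 (0.241), C1r by -0.20 ± 0.11 (0.410), C4b by -0.20 ± 0.40 (0.876) and C3ar1 by -0.17 ± 0.25 (0.818). C3 had 155 ± 13.4 CPM in males and 149 ± 17.5 CPM in females, a log2 fold change of 0.06 ± 0.08 (edgeR adjusted p = 0.780).

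Both classes of library occur in each intact sex. Among the shorter ones, 2 males and 2 females, C1qc had a log2 fold change of -0.60 (edgeR adjusted p = 0.422) and Serping1 of -0.68 (0.360). In these libraries edgeR called 0 of 9 members and 34 of 15130 genes. With the class as a term both stayed called, C1qc at -0.60 (edgeR adjusted p = 0.0229) and Serping1 at -0.78 (0.0229). Of the 11 meninges and fibroblast genes 9 were lower in males, with a summed 127 ± 50.1 CPM in males and 319 ± 138 CPM in females. With their mean as a term Serping1 was at -0.04 and C1qc at -0.46, and edgeR called 0 of 9 members and 21 of 14937 genes. That mean was lower in every intact male (2.001 to 2.998) than in every intact female (3.01 to 4.36), so its part and that of sex cannot be told apart in this fit. Of the border macrophage genes 3 of 7 were lower in males, of the endothelial genes 1 of 10, and of microglia and astrocyte genes 0 of 13 and 0 of 9 were called by edgeR, with 3 and 1 at an unadjusted p under 0.05. With the microglia mean as a term C1qa, C1qb, C1qc and Serping1 were called among 651 genes, C1qc at -0.68 (edgeR adjusted p = 0.0046) and Serping1 at -0.77 (0.0331). The count of genes called fell from 599 to 352 without intact male 1.

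Without gonads, the sexes differed in 0 of 9 members by edgeR, with 0 by DESeq2 as well (130 genes) and 1, C1qa, at an unadjusted p under 0.05 (1413 genes). In this comparison 0.232% of 15084 genes were called and 1.35% had groups that did not overlap, as 0 members did. All these libraries are of the shorter class. C1qa had 25.0 ± 3.27 CPM in GDX males and 28.8 ± 3.03 CPM in OVX females, a log2 fold change of -0.20 ± 0.09 with 1 of 5 males above the female mean (edgeR adjusted p = 0.497).

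C1qc stood at 13.7 ± 2.502 CPM in GDX males and 13.5 ± 1.60 CPM in OVX females, a log2 fold change of 0.02 ± 0.11 (95% interval -0.21 to 0.26). Serping1 stood at 11.8 ± 5.40 and 12.4 ± 2.79 CPM, a log2 fold change of -0.07 ± 0.23 (95% interval -0.55 to 0.42). C3ar1 had the largest positive value, 0.36 ± 0.25 (edgeR adjusted p = 0.705), and C4b the lowest, -0.22 ± 0.29 (edgeR adjusted p = 0.860). The median of the members was -0.07, beside -0.000283 over all genes. Of the marker genes listed above 0 were called by edgeR, with 1 microglia and 1 astrocyte gene at an unadjusted p under 0.05, and the meninges and fibroblast sums averaged 398 and 395 CPM.

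The response of males to castration was also set against that of females to ovariectomy in 1 fit of 22 rats. The difference passed the test for 0 of 9 members by edgeR, where 0.116% of 15562 genes (18 genes) were called, and 2 members and 1810 genes reached an unadjusted p under 0.05. DESeq2 called 1 member, C1qc, among 243 genes. The calls of C1qc, C1r, C1s and Serping1 in males are therefore no called differences between the responses.

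For C1qc the male response exceeded the female response by 0.61 ± 0.18 on the log2 scale (edgeR adjusted p = 0.174, DESeq2 0.0835). C1qc was called without GDX male 1, at 0.65 (edgeR adjusted p = 0.0998), where 275 genes were called. For Serping1 the excess was 0.72 ± 0.31 (edgeR adjusted p = 0.355), and 0.43 without GDX male 5 (0.632). The other members lay between -0.12 ± 0.12 for C3 (edgeR 0.769) and 0.53 ± 0.37 for C3ar1 (0.608), with a median of 0.18 over the members and 0.00168 over all genes. Of the meninges and fibroblast genes 10 of 11 reached an unadjusted p under 0.05 and edgeR called 0, with a median of 1.37. With their mean as a term C1qc was at 0.42 (edgeR adjusted p = 0.928) and Serping1 at -0.30 (0.948). In the shorter libraries alone C1qc was at 0.62 (edgeR adjusted p = 0.449) and Serping1 at 0.62 (0.664).

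**Figure D4:**
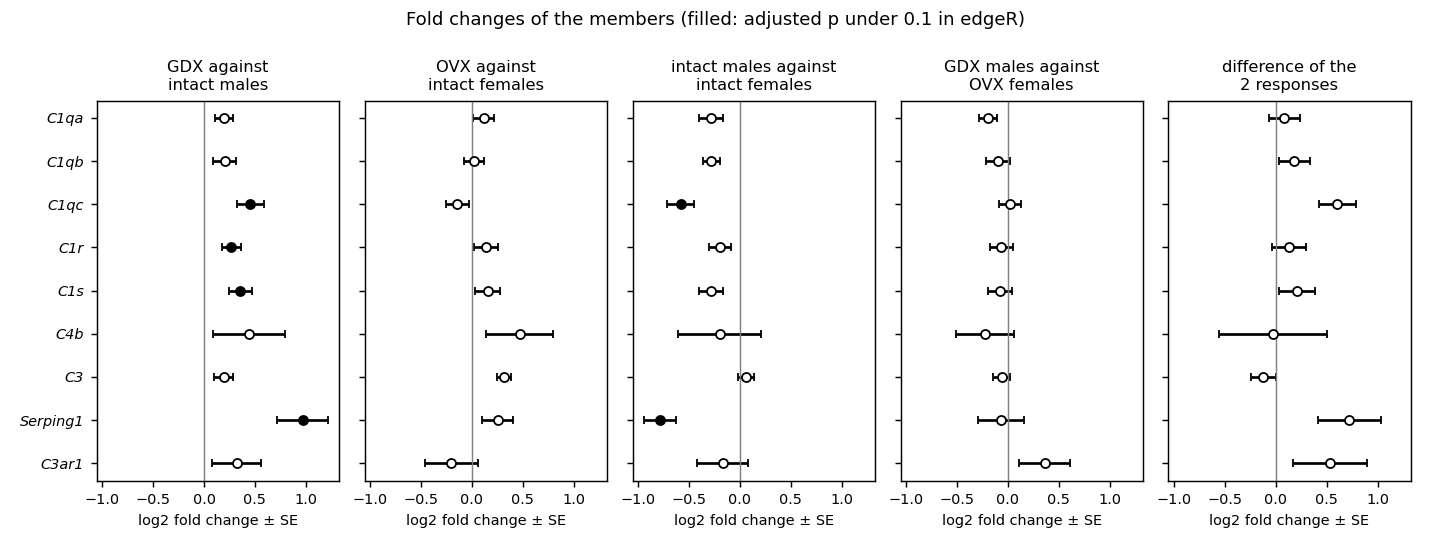
Log2 fold change ± SE of each member on the horizontal axis in each of 5 comparisons, filled where edgeR's adjusted p was under 0.1. The filled points are C1qc, C1r, C1s and Serping1 between GDX and intact males, and C1qc and Serping1 between intact males and females.

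The plot of fold changes shows the 5 comparisons with their errors. Those that use the same group share its samples, so their values are given side by side and were not compared. For C1qc the group means were 9.93 ± 1.64 CPM in intact males, 13.5 ± 1.60 in OVX females, 13.7 ± 2.502 in GDX males and 15.0 ± 2.88 in intact females, and for Serping1 6.04 ± 1.07 in intact males, 10.45 ± 2.24 in intact females, 11.8 ± 5.40 in GDX males and 12.4 ± 2.79 in OVX females. In both orders the neighbours above intact males lay within each other's SD. That SD is a spread between rats and no test of the means. In rising order, C3 was at 149 ± 17.5 CPM in intact females and 155 ± 13.4 CPM in intact males. It was at 177 ± 26.1 CPM in GDX males and 184 ± 14.0 CPM in OVX females. In edgeR fits of all rats C3 was called neither after castration (adjusted p = 0.210) nor after ovariectomy (0.150). DESeq2 called it after ovariectomy.

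C1q is assembled from its A, B and C chains, and the share of each chain in the counts of the 3 genes was followed. For C1qc this share was, as mean ± SD, 21.3% ± 2.15 in intact males (19.3 to 24.7%) and 24.4% ± 0.789 after castration (23.6 to 25.4%), and 25.1% ± 1.63 in intact females (22.2 to 26.7%) and 22.3% ± 1.67 after ovariectomy (20.7 to 25.1%). The share was lowest in intact males and highest in intact females, with overlap between all groups. C1qa took 47.0%, 45.1%, 44.5% and 47.6% in the same order and C1qb 31.7%, 30.5%, 30.4% and 30.0%. Together the chains summed to 46.6 ± 4.93, 55.7 ± 8.62, 59.7 ± 9.07 and 60.5 ± 6.16 CPM in the same order. The ratio of C1r to C1s counts lay between 1.12 and 1.51 over the 22 rats and between 1.12 and 1.50 in GDX males. Its group means were 1.37, 1.31, 1.30 and 1.28 in the same order. These shares and ratios were not tested.

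Likeness over rats was measured as the correlation of log2 CPM over 22 rats after centring within groups, against 15561 other genes and without a p. C1r and C1s were each other's nearest gene, with r = 0.841 and rho = 0.867 (r = 0.831 in the 15 shorter libraries, and 0.833 without GDX male 1 and intact female 4). C1r was next most like Rtn4ip1 (r = 0.788) and Msh5 (0.788), and C1s Bicc1 (0.815) and S100a11 (0.812). Serping1 was most like Itgb4 (0.939), Fmod (0.925) and Vim (0.923). C1qc was most like Cst3 (0.854), Ndrg2 (0.839) and Apoe (0.815), C1qa Tspan6 (0.822), Lrrc66 (0.818) and Rpl5 (0.813), and C1qb Tcn2 (0.805), Ctsa (0.782) and Cybrd1 (0.776). The C1q chains A and C correlated at r = 0.806 and rho = 0.758, and at 0.659 without intact female 4 and GDX male 5. C3 was most like Prickle3 (0.838), Polg (0.766) and Dapp1 (0.752), C4b Map2k1 (0.728), Rundc3b (0.719) and Gnal (0.708), and C3ar1 Ca5b (0.783), Tmem263 (0.771) and Chuk (0.755). Ranked by Spearman's rho, 3 of the 3 nearest genes were shared for C1r, 2 for Serping1 and C3ar1, 0 for C4b and 1 for the others.

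The rest of the cascade was followed with 46 other listed genes, of which 44 symbols were in the table. Cfb (both entries), C8a, Mbl1, Mbl2 and Vsig4 were at 0 in every library, and Csmd3 and Itgam had no entry. In males 5 of 23 tested were higher and 3 lower after castration, with a median log2 fold change of 0.18, where 13.4% of all genes tested were called and 6.78% were higher. C7, a component of the membrane attack complex, had 4.34 ± 1.81 CPM in intact and 9.45 ± 2.51 CPM in GDX males and rose by 1.13 ± 0.25 on the log2 scale (edgeR adjusted p = 0.0156), the lectin Colec12 by 0.86 ± 0.21 (0.0203), vitronectin, Vtn, by 0.59 ± 0.15 (0.0235), Cd93 by 0.53 ± 0.17 (0.0624) and the membrane regulator Cr1l by 0.28 ± 0.09 (0.0634). The membrane regulators Csmd2, Susd4 and Csmd1 fell by 0.38 (0.0156), 0.27 (0.0124) and 0.22 (0.0935) on the same scale. Of these genes Colec12 and Susd4 had groups that did not overlap, as 7.47% of all genes had.

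Among shorter male libraries 2 of the 8 stayed called, Vtn at 0.66 and Cr1l at 0.42 (edgeR adjusted p = 0.0859 for each). Without a call, Colec12 was at 0.96, Susd4 at -0.29, Csmd2 at -0.39 and Csmd1 at -0.26, close to their log2 fold changes over all males, C7 was at 0.91 beside 1.13 and Cd93 at 0.26 beside 0.53. A class term left 3 of the other complement genes called, and with the meninges and fibroblast mean as a term 0 were called by edgeR. In that fit Colec12 turned to -0.25, Vtn was at 0.06, C7 at 0.16, Cr1l at 0.15, Susd4 at -0.17, Csmd2 at -0.09 and Csmd1 at -0.09, and Cd93 was at 0.84. These counts for the other complement genes were chosen after seeing the data. Leaving out 1 male gave 5 to 10 calls, with 5 without intact male 1 or 6, and Cr1l, Cd93 and Csmd1 kept their calls in 3, 5 and 2 of 10 such fits. Of genes that were not called, clusterin, Clu, had 730.3 ± 34.7 CPM in intact and 829 ± 99.9 CPM in GDX males and Cd59, which blocks the membrane attack complex, 161 and 153 CPM.

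After ovariectomy 1 of 25 other complement genes was called, Cd93, a proposed C1q receptor, where 0.0335% of all genes were called and 0.543% had groups that did not overlap. It had 4.38 ± 1.14 CPM in intact and 8.69 ± 1.85 CPM in OVX females and rose by 0.99 ± 0.18 on the log2 scale, with 6 of 6 OVX females above all intact females and close to the level of the call (edgeR adjusted p = 0.0999). Its call held in 5 of 12 fits that left out 1 female, and without a call it was at 1.076 in shorter libraries (edgeR adjusted p = 0.307) and at 0.98 with the meninges and fibroblast mean as a term (0.127). Cd93 is expressed in endothelium, whose listed genes summed to 310 ± 56.9 CPM in intact and 388 ± 41.3 CPM in OVX females, with 10 of 10 above 0 in log2 fold change, 8 of 10 at an unadjusted p under 0.05 and 0 called by edgeR, and their part in Cd93 was not tested.

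Between the intact sexes 4 of 24 were called, beside 4.01% of all genes. Csmd1 (0.24 ± 0.05, edgeR adjusted p = 0.0194) and Csmd2 (0.31 ± 0.07, 0.0372) were higher in males, and C7 (-1.16 ± 0.23, 0.0161) and Colec12 (-0.53 ± 0.13, 0.0492) lower. Csmd1 and C7 had groups that did not overlap, as 2.67% of all genes had. In shorter libraries Csmd2 stayed called at 0.48 (edgeR adjusted p = 0.0905), and Csmd1 was at 0.33 (0.301), Colec12 at -0.62 (0.430) and C7 at -0.96 (0.396). With the class as a term Csmd2 (edgeR adjusted p = 0.0262), Csmd1 (0.0246), Colec12 (0.0551) and C7 (0.0179) stayed called. Of 11 fits that left out 1 rat, Colec12 was called in 7, Csmd2 in 10, and Csmd1 and C7 in 11. With the meninges and fibroblast mean as a term 0 were called by edgeR, with Csmd1 at 0.25, Csmd2 at 0.25, C7 at -0.43 and Colec12 turned to 0.03. C7 had 4.34 CPM in intact males and 9.45, 9.69 and 9.44 CPM in GDX males, intact females and OVX females. Of 27 tested between GDX males and OVX females, and of 28 for the difference of responses, 0 were called by edgeR, with 1 and 5 at an unadjusted p under 0.05 and 0 and 1 called by DESeq2.

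**Figure D5:**
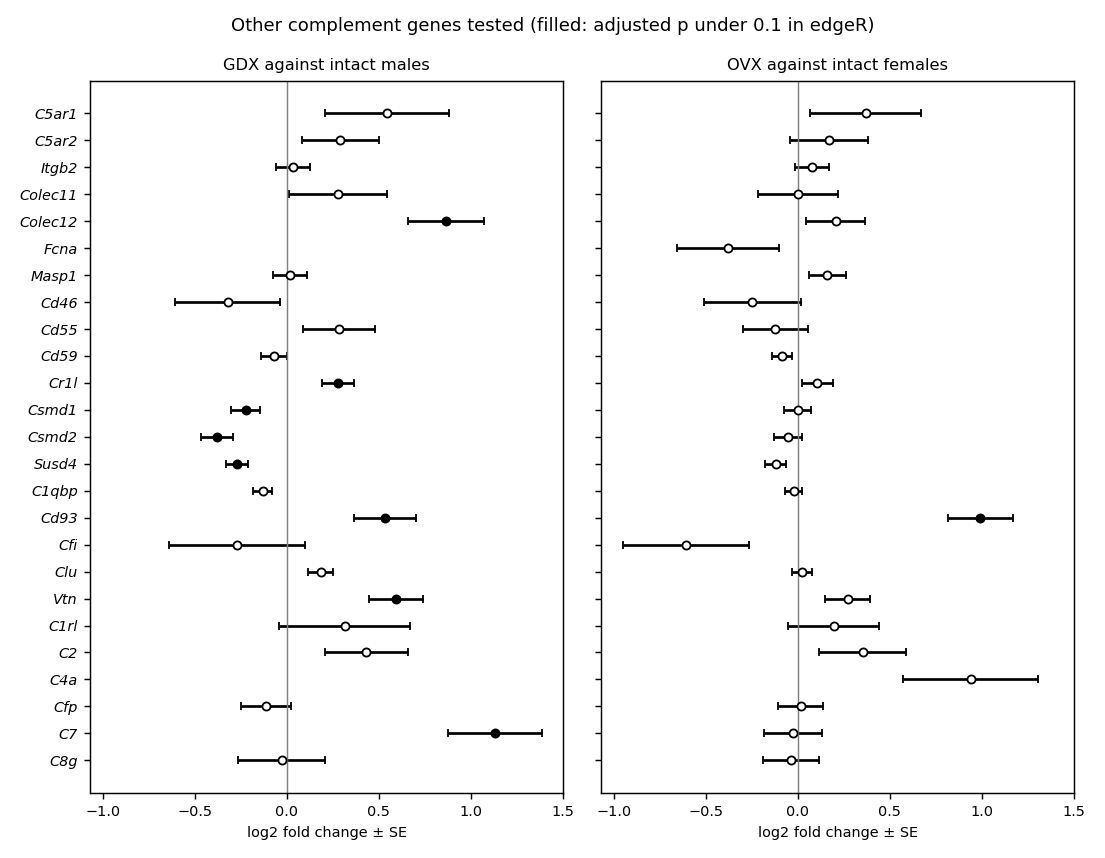
Log2 fold change ± SE on the horizontal axis of the other complement genes tested after castration and after ovariectomy, filled where edgeR's adjusted p was under 0.1. After castration 5 genes are filled to the right of 0 and 3 to the left, and after ovariectomy Cd93 is filled at 0.99.

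The plot of other complement genes shows the 23 genes tested in males beside the 25 tested in females, with the regulator Vtn to the right of 0 and Csmd1, Csmd2 and Susd4 to the left of it in males.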

How the data were processed

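RNA from the ventral cervical cord of 22 rats was sequenced with 1 library per rat. The authors deposited raw counts per gene from Subread featureCounts, with trimming and alignment before it. The study's methods name Hisat2, the submitters' processing notes TopHat2 2.0.13 and the build Rnor_6.0. Settings for strand and multi-mapped reads are not given in the sources used here.

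Counts were tested in R 4.3.3 with edgeR 4.0.16 (filterByExpr, TMM, quasi-likelihood, only the groups compared, Benjamini-Hochberg over all genes tested). The difference of responses used 4 group means. Log2 CPM had a prior count of 2. All members were named, with other complement genes called in any comparison, examples of high level, the 3 genes most like each member, and of each marker list the most abundant gene and any at 0. Members and lists were chosen with earlier results of these data known. From the other complement genes 1 was taken out after its results were seen, for reasons apart from its values, and is not reported here. Other settings were DESeq2 1.42.0, no filter, RLE factors, library class as a term, shorter libraries only, the rat number as a block, the meninges and fibroblast or microglia list mean as a term, and each rat left out. Their use for the other complement genes was added after seeing the data. The pipeline was tested on simulated data. P-values test a difference between groups against the spread between rats.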

Additional observations from a re-analysis of the deposited data

Results flagged for a closer look

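Single rats far off their own group were looked for in 116 groups of rats, and 4 were found. Chance gives about 1 in 20 groups where groups are independent and values normal, so 4 of 116 is no excess. The groups share the same 22 libraries, so whether 4 is fewer than chance gives cannot be told. C1qc in intact female 4 was 20.4 CPM, with the nearest other intact female at 15.2 CPM. The share of C1qb in the C1q counts of OVX female 5 was 24.3%, with the nearest other OVX female at 29.8%. Vtn in OVX female 5 was 17.0 CPM, with the nearest at 23.6 CPM. The astrocyte list summed to 9714 CPM in GDX male 5, with the nearest GDX male at 8792 CPM.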

How the results depend on the processing

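Over 45 log2 fold changes of members, settings other than leaving out a rat gave 342 values, of which 288 kept their direction and side of the threshold, 20 kept the direction and lost the call, 7 gained one and 27 turned sign. Leaving out a rat gave 594 values, of which 546, 16, 5 and 27 did so. Of members called between GDX and intact males, 4 with all rats, there were 3 with no filter, 0 with the class as a term, 0 in shorter libraries, 4 with the replicate block (C1s lost its call, at an edgeR adjusted p of 0.130, and C1qa gained one, at 0.0910), 0 with the meninges and fibroblast mean, 2 with the microglia mean and 1 to 4 without a rat. Of genes called there, 1995 with all rats, there were 796 with the class, 440 in shorter libraries, 1274 with the replicate block, 5 with the meninges and fibroblast mean, 1072 with the microglia mean and 1202 to 2446 without a rat. For OVX against intact females 1 member was called by DESeq2 and 0 to 1 without a rat, and of genes, 5 with all rats, 174 by DESeq2, 11 with no filter, 3 with the class, 0 with the replicate block, 8 with the meninges and fibroblast mean and 0 to 113 without a rat. RLE factors, shorter libraries and the microglia mean gave 7 genes each. For intact males against intact females 3 members were called by DESeq2, 0 in shorter libraries, 1 with the replicate block (Serping1 at an edgeR adjusted p of 0.1001), 0 with the meninges and fibroblast mean, 4 with the microglia mean and 2 to 3 without a rat. Of genes, 599 with all rats, there were 820 by DESeq2, 34 in shorter libraries, 255 with the replicate block, 21 with the meninges and fibroblast mean and 352 to 777 without a rat. For GDX males against OVX females 0 members were called in edgeR and DESeq2 fits, and of genes, 35 with all rats, 130 by DESeq2, 226 with the meninges and fibroblast mean, 24 with the replicate block, 48 with no filter and 23 to 44 without a rat. For the difference of responses 1 member was called by DESeq2, 1 with the microglia mean and 0 to 1 without a rat, and of genes, 18 with all rats, 243 by DESeq2, 33 with no filter, 6 with the class, 5 in shorter libraries, 0 with the replicate block, 1 with the meninges and fibroblast mean, 92 with the microglia mean and 1 to 275 without a rat. Signs turned between GDX and intact males for C4b with the class (-0.0344) and in shorter libraries (-0.0346), and with the meninges and fibroblast mean for C1qa (-0.11), C1qb (-0.17), Serping1 (-0.44) and C3ar1 (-0.13). They turned between OVX and intact females for C1qa with the class (-0.13), in shorter libraries (-0.13) and with the microglia mean (-0.0412), and for C1qb with the class (-0.0281), in shorter libraries (-0.0321), with the meninges and fibroblast mean (-0.0655) and with the microglia mean (-0.0898). Between the intact sexes they turned for C3 in shorter libraries (-0.0531), for C3ar1 with the replicate block (0.0712), and with the meninges and fibroblast mean for C1s (0.0412), C4b (0.27), C3 (-0.20) and C3ar1 (0.47). They turned between GDX males and OVX females for C1qc with the microglia mean (-0.0328), and in the difference of responses for C4b with the class (0.0498) and with the meninges and fibroblast mean for C1qa (-0.0532), C1qb (-0.13), C1r (-0.13), C1s (-0.20), Serping1 (-0.30) and C3ar1 (-0.0535). Leaving out a rat turned signs between OVX and intact females for C1qb (-0.0451 to 0.0642) and C3ar1 (-0.33 to 0.0324), between the intact sexes for C3ar1 (-0.26 to 0.0732), between GDX males and OVX females for C1qc (-0.0893 to 0.079), C1r (-0.12 to 0.0202), C1s (-0.13 to 0.0134), C3 (-0.12 to 0.0178) and Serping1 (-0.35 to 0.0909), and in the difference of responses for C4b (-0.21 to 0.31) and C1qa (-0.0093 to 0.16). Of the other complement genes called, 8 in males, 1 in females, 4 between the intact sexes and 0 in the other comparisons, with alternatives chosen after seeing the data, there were 2, 0 and 1 in shorter libraries and 0 with the meninges and fibroblast mean. Their log2 fold changes kept their sign in shorter libraries, and with the meninges and fibroblast mean Colec12 turned, to -0.25 in males and 0.0307 between the intact sexes. Rats that share a number correlated at -0.114 to 0.0626 after centring within groups. These values cannot show whether such rats were paired, and the labels do not say. The replicate block therefore tells nothing of pairing. The cause of these changes was not tested. Depth limits C4b and C3ar1.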
